A study of Mus musculus with 18 samples.

Results

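The step between the 2 adult stages of the mouse cerebral cortex, labelled A6w and A18w, was described across all expressed genes by setting the 4 libraries labelled A18w against the 4 labelled A6w. These 8 libraries are of 18 in the series, which also holds cortex at E17.5 and P4 and WT embryonic stem cells. All 8 come from male C57BL/6J cortex, and at each stage 2 are labelled WT and 2 Mcph1KO, a knockout of the microcephaly gene Mcph1, with the genotype label kept as a term in the comparison. RNA and DNA were taken from the same homogenate of each chopped tissue. The labels do not say whether 2 libraries of a group came from different animals, so the tests measure the spread between these libraries, which may be technical. No dissection border is given beyond the tissue name, and the striatum lies directly beneath the cortex, so a list of 50 marker genes of striatal projection neurons was set apart from the rest.

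The adult cortex is built of excitatory pyramidal neurons, GABA-releasing interneurons, astrocytes, microglia, vessels and the oligodendrocyte lineage. Oligodendrocytes arise from dividing precursors, pass through a short committed stage and then wrap axons in myelin, a process that goes on in the mouse cortex well after weaning. Vessels are held by a basement membrane of type IV collagens, laminins and nidogens that is laid down mostly during growth. Striatal projection neurons, by contrast, are GABAergic cells that carry dopamine receptors and the adenosine receptor Adora2a, which cortical neurons express little.

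Total counts of the 8 adult libraries ran from 24086143 to 30745603, with 22318 to 23530 genes detected. Levels are given as CPM, a gene's count scaled to the TMM-adjusted total of its library, in the order WT 1, WT 2, Mcph1KO 1 and Mcph1KO 2 within each stage. Mcph1 was at 8.94, 8.20, 14.8 and 15.2 CPM at A6w and at 7.64, 8.95, 12.8 and 10.9 CPM at A18w. Libraries labelled Mcph1KO therefore did not show a loss of Mcph1 counts at the gene level, and "Mcph1KO" is used here only as their label. Between stages Mcph1 differed by -0.20 ± 0.13 (log2 fold change ± SE, edgeR adjusted p = 0.605).

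Both A18w libraries numbered 1 stood apart from the other 6. On the first principal component of log2 CPM, which took 26% of the variance, they sat at 49.6 and 46.5, whereas the other 6 lay between -36.8 and -1.5. The summed level of the striatal list was 6940 CPM in A18w WT 1 and 5560 CPM in A18w Mcph1KO 1, against 1970 and 2800 CPM in the A18w libraries numbered 2 and 1050 to 1710 CPM in the A6w libraries. Key results are therefore also given without both A18w libraries numbered 1.

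No single gene passed the test for the step. With 17572 genes tested in edgeR's quasi-likelihood test and Benjamini-Hochberg adjustment, 0 genes (0%) had an adjusted p under 0.05, and the smallest adjusted p was 0.0558. An unadjusted p under 0.05 was met by 1943 genes (11.1%), of which 980 (5.58%) were higher and 963 (5.48%) lower at A18w. The unadjusted count was 1074 (5.85%) without both A18w libraries numbered 1. DESeq2 called 314 genes (1.79%) on the same counts, 192 higher and 122 lower, and 32 of them belonged to the striatal list. Accordingly, genes below are described as higher or lower by their values, and their names were picked by the smallest p, by level or after the values were seen. In a bulk tissue, fewer cells of a type and less RNA per cell cannot be told apart.

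The striatal list was higher at A18w in nearly all its measured members. Of its 47 measured genes, 46 were higher at A18w, 40 of them at an unadjusted p under 0.05 (against 5.58% of all genes). In 32, against 3.52% of all genes, every A18w library stood above every A6w library. The list's median log2 fold change was 1.99, against 0.01 over all genes tested. Ppp1r1b, which encodes the dopamine-regulated phosphatase inhibitor DARPP-32, was at 141, 91.1, 68.2 and 68.5 CPM at A6w and at 852, 178, 660 and 252 CPM at A18w. The libraries numbered 1 carried most of that difference, although those numbered 2 also stood above all of A6w.

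Genes of both classes of striatal projection neuron took part. Drd2, the dopamine receptor of the indirect pathway, was at 9.24, 2.48, 1.41 and 1.17 CPM at A6w and at 95.7, 17.8, 70.6 and 29.9 CPM at A18w (log2 fold change 4.16 ± 0.70, edgeR adjusted p = 0.168). Adora2a, the adenosine receptor of the same cells, differed by 4.16 ± 0.78 and Penk, the enkephalin precursor, by 2.87 ± 0.49. Drd1, the receptor of the direct pathway, was at 9.09 to 13.6 CPM at A6w and at 103, 20.0, 71.1 and 30.2 CPM at A18w. Isl1, a transcription factor of the striatal and cholinergic lineages, had 2 counts over the 4 A6w libraries and 183 over the 4 A18w libraries, a ratio of 107 after scaling to library size, with a counting interval of 29.2 to 890.

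In 43 of the 47 striatal genes both A18w libraries numbered 1 lay above both numbered 2, a pattern that held for 24.7% of all genes. Without both libraries numbered 1 the list's median was 1.09, with 42 of 46 genes above 0, so the A18w libraries numbered 2 stood above A6w as well. The level of this list was also entered in the model as a covariate for other genes. The covariate is made of the list's own genes, so their values near 0 in that fit (median -0.17) are set by its construction. It also differed between the stages, so it takes a part of any stage difference with it.

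**Figure D1:**
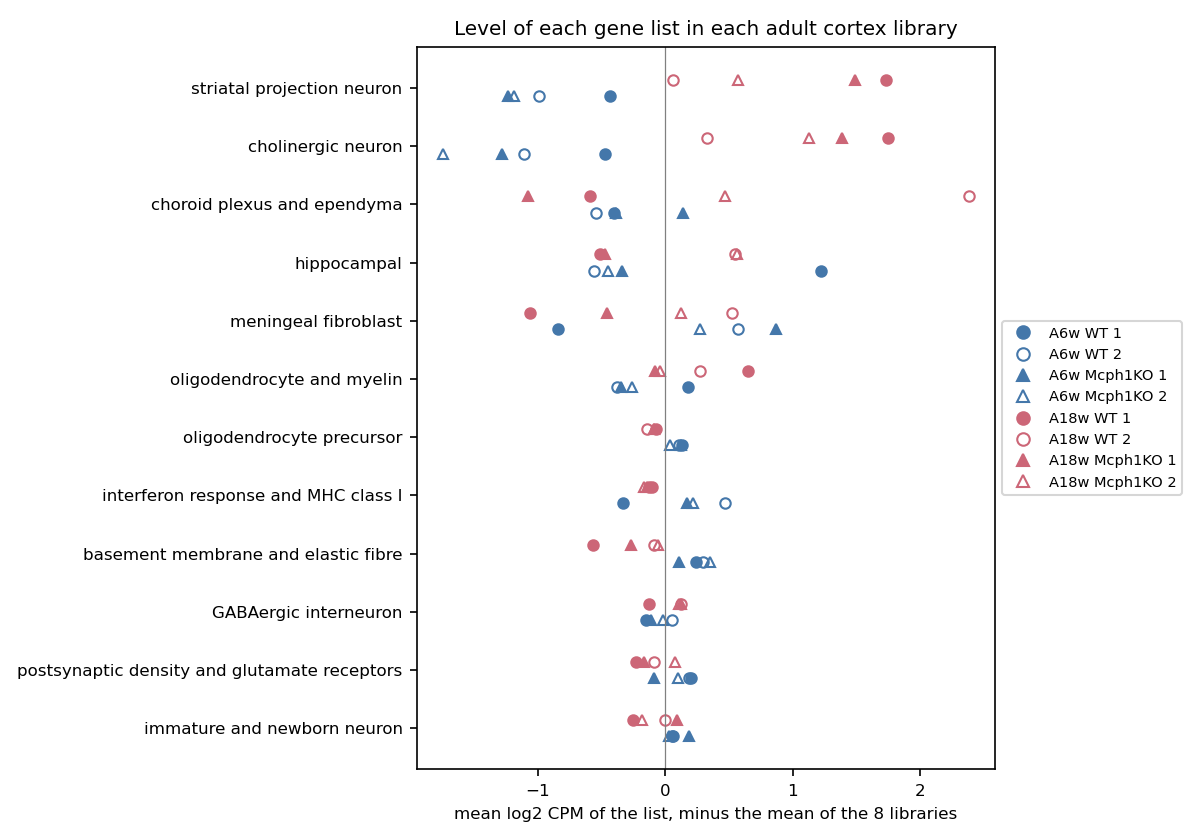
Mean log2 CPM of the genes of 12 lists in each adult library, as the difference from the mean of the 8 libraries (horizontal axis, log2). Blue marks A6w and red A18w; circles are WT and triangles Mcph1KO; filled marks are libraries numbered 1 and open marks those numbered 2. The striatal list stands highest in both A18w libraries numbered 1, and the choroid plexus list in A18w WT 2.

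Markers of striatal cholinergic interneurons, a list assembled after the values were seen, moved with the striatal genes. All 7 measured members were higher at A18w, with a median log2 fold change of 2.96. Chat, the enzyme that makes acetylcholine, was at 0.451, 0.331, 0.384 and 0.312 CPM at A6w and at 4.38, 1.13, 3.10 and 3.02 CPM at A18w (2.96 ± 0.43, edgeR adjusted p = 0.0916). Slc10a4, a vesicle protein of cholinergic and monoaminergic neurons, differed by 3.83 ± 0.53, and the choline transporter Slc5a7 by 2.32 ± 0.40. The gene Slc18a3, the vesicular acetylcholine transporter, lies inside the Chat locus, so reads of the pair may be shared. Six3os1, the antisense partner of the striatal transcription factor Six3, was at 0 to 0.113 CPM at A6w and at 2.83, 1.26, 2.87 and 1.90 CPM at A18w (5.51 ± 0.61, edgeR adjusted p = 0.0558). It overlaps Six3, and the counting is not stated to use strand, so reads of the pair may be shared.

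Genes shared by cortical interneurons and striatal neurons were mixed. Of 31 measured GABAergic interneuron genes, 17 were above 0. At an unadjusted p under 0.05, 7 were higher and 1 lower, against 5.58% and 5.48% of all genes. Slc32a1, the vesicular GABA transporter, was at 88.8, 106, 73.1 and 95.6 CPM at A6w and at 175, 125, 145 and 131 CPM at A18w (0.67 ± 0.14). Dlx5, a transcription factor of the GABAergic lineage, differed by 1.02 ± 0.23, and Dlx6 by 1.35 ± 0.36 with 12.1 and 11.7 CPM in the A18w libraries numbered 1 against 3.77 and 5.26 CPM in those numbered 2. Pvalb, the calcium buffer of fast-spiking interneurons, was at 21.0 to 43.7 CPM at A6w and 36.5 to 59.3 CPM at A18w, so the stages overlapped. The striatal level of the libraries moved with these genes, and its part in them was not tested beyond the covariate fit, in which Slc32a1 differed by 0.26 and Dlx6 by -0.57.

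Other RNA from outside the cortical grey matter also differed by library. The choroid plexus list summed to 1150 CPM in A18w WT 2 and to 178 to 274 CPM in the other 7, with Ttr, the plexus's thyroid hormone carrier, at 586 CPM in A18w WT 2 and at 0 to 11.8 CPM elsewhere. Its 18 measured genes had a median of 0.91 with all libraries and -0.06 without A18w WT 2. Clic6, a chloride channel protein of the plexus, was nevertheless above A6w in all 4 A18w libraries, at 4.08, 12.3, 3.10 and 3.89 CPM against 0.496 to 0.859 CPM (3.03 ± 0.45, edgeR adjusted p = 0.0977). Hippocampal markers summed to 1700 CPM in A6w WT 1 and to 1030 to 1330 CPM in the other 7. Their mean log2 CPM was 4.97 in A6w WT 1, 4.3 and 4.31 in the A18w libraries numbered 2, and 3.19 to 3.41 elsewhere. In 18 of the 26 genes both A18w libraries numbered 1 lay below both numbered 2, against 23.3% of all genes. Leaving out those numbered 1 thus keeps the A18w libraries higher in hippocampal markers. In that fit the hippocampal and plexus medians were 0.23 and 2.12, against -0.05 and 0.91 with all 8 libraries. Meningeal fibroblast markers summed to 305 CPM in A6w WT 1 and 392 CPM in A18w WT 1, and to 506 to 1290 CPM in the rest.

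Within the oligodendrocyte lineage, mature markers were higher and precursor markers lower at A18w. Of 38 oligodendrocyte and myelin genes, all measured, 28 were above 0, with a median of 0.40; 19 were higher and 0 lower at an unadjusted p under 0.05. Of 21 precursor genes, all measured, 18 were below 0, with a median of -0.18; 6 were lower and 2 higher at that threshold. Over all genes 5.58% were higher and 5.48% lower at that threshold. DESeq2 called 13 of the oligodendrocyte genes higher and 3 of the precursor genes lower, against 192 higher and 122 lower of all 17572 genes. The oligodendrocyte median was 0.48 in WT and 0.22 in Mcph1KO, and the precursor median -0.23 and -0.24. Without both A18w libraries numbered 1 the oligodendrocyte median was 0.29, with 13 genes higher and 1 lower at an unadjusted p under 0.05, and the precursor median was -0.20, with 3 genes lower. With the striatal level in the model the oligodendrocyte median was 0.10, with 1 gene higher and 3 lower. Bcas1, a gene of newly forming oligodendrocytes, was among the genes that stood on both lists and was higher, at 0.61.

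Klk6, a secreted protease of mature oligodendrocytes, was at 1.54, 1.26, 1.06 and 0.742 CPM at A6w and at 8.54, 3.85, 3.66 and 3.48 CPM at A18w. Its log2 fold change was 2.06 ± 0.28 (edgeR adjusted p = 0.0845), and 1.70 without both A18w libraries numbered 1. Trf, the iron carrier transferrin, was at 207, 133, 148 and 146 CPM at A6w and at 387, 324, 213 and 249 CPM at A18w (0.86 ± 0.16, edgeR adjusted p = 0.169). Without the A18w libraries numbered 1, Trf still differed by 0.85, although its lowest A18w and highest A6w values lay close together.

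Further mature markers, chosen after their values were seen, followed the same order of stages. The 10 genes of the list below 0 are not among those named. Hapln2, a link protein of the node of Ranvier, differed by 1.17 ± 0.23, with the stages overlapping at 13.7 and 14.7 CPM. Cryab, a small heat shock protein of oligodendrocytes, was at 46.8 to 71.2 CPM at A6w and 74.7 to 109 CPM at A18w (0.61 ± 0.12). Il33, an alarmin cytokine held in oligodendrocyte nuclei, differed by 1.09 ± 0.25, Car2, a carbonic anhydrase, by 0.62 ± 0.12, and Gjb1, the gap junction protein connexin 32, by 0.84 ± 0.18. The septin partner Anln was at 14.7 to 27.4 CPM at A6w and 22.0 to 54.3 CPM at A18w.

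Mbp, myelin basic protein, a main structural protein of the sheath, was at 3350, 1790, 2070 and 1810 CPM at A6w and at 5190, 2510, 2330 and 2100 CPM at A18w, with overlapping stages (0.39 ± 0.25, edgeR adjusted p = 0.602). WT 1 was its highest library at each stage. Summed over the list, A6w WT 1 stood at 10500 CPM and A18w WT 1 at 13800 CPM, and the other 6 libraries at 6590 to 8790 CPM. In Mcph1KO the sum was 7090 and 7310 CPM at A6w and 7280 and 7210 CPM at A18w.

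Gpr17, a receptor of the committed stage between precursor and myelinating cell, was at 73.0, 83.0, 61.1 and 66.0 CPM at A6w and at 35.4, 38.2, 33.8 and 40.6 CPM at A18w. Every A18w library lay under every A6w library, which was a condition for naming it. The log2 fold change of Gpr17 was -0.93 ± 0.11 (edgeR adjusted p = 0.0558). It was -0.83 when both A18w libraries numbered 1 were left out. At the earlier stages Gpr17 had gone the other way, from a mean of 7.48 CPM at E17.5 to 29.2 CPM at P4. Gpr17 lies within the Lims2 locus on chromosome 18 (31942997 to 31949636, GRCm38).

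Pdgfra, the growth factor receptor that marks precursors, was at 59.1, 60.6, 82.7 and 66.4 CPM at A6w and at 40.2, 44.9, 51.3 and 51.5 CPM at A18w (-0.51 ± 0.10, edgeR adjusted p = 0.169). Cspg4, the NG2 proteoglycan of the same cells, was at 18.1 to 22.5 CPM at A6w and 12.9 to 15.7 CPM at A18w (-0.43 ± 0.12). It stood also on the pericyte and smooth muscle list, of which 17 of 21 genes were below 0, with a median of -0.20. Which cells its reads came from was not tested. Bmp4, a morphogen made by committed precursors, differed by -0.67 ± 0.23. Pdgfra, Cspg4, Bmp4 and Gpr17 were the 4 of the precursor list whose stages did not overlap downward, which 3.18% of all genes showed. The most abundant precursor-list gene, Ptprz1, a receptor phosphatase also made by astrocytes, differed by only -0.14 ± 0.10.

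**Figure D2:**
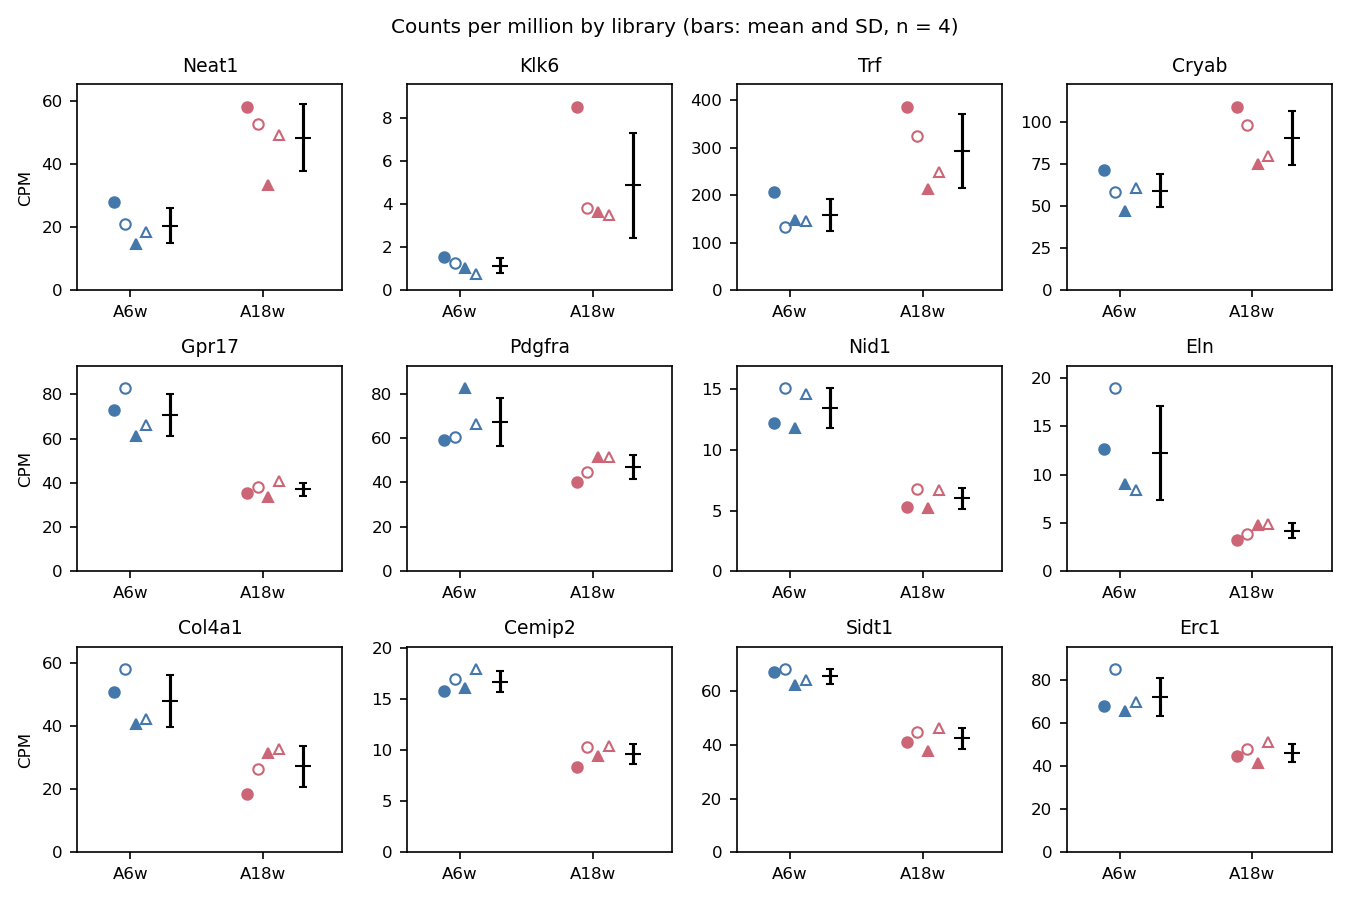
CPM of 12 genes in each adult library (vertical axes start at 0), with the mean and SD of the 4 libraries of a stage beside them as a bar. Blue marks A6w and red A18w; circles are WT and triangles Mcph1KO; filled marks are libraries numbered 1 and open marks those numbered 2. In all 12 genes the stages do not overlap, which was a condition for naming Neat1, Klk6, Gpr17, Nid1, Cemip2, Sidt1 and Erc1. The other genes shown were chosen after their values were seen. Klk6 is highest in A18w WT 1 at 8.54 CPM.

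Neat1, the long noncoding RNA that scaffolds paraspeckles, was among the genes of smallest p. It was at 27.8, 20.9, 14.6 and 18.4 CPM at A6w and at 58.1, 52.6, 33.3 and 49.1 CPM at A18w. The log2 fold change was 1.25 ± 0.15 (edgeR adjusted p = 0.0558), and it was 1.35 without both A18w libraries numbered 1 and 1.23 with the striatal level in the model. Neat1 had also been higher at P4 than at E17.5, by 1.29 ± 0.38 (edgeR adjusted p = 0.0269). The gene lies on the minus strand of chromosome 19 (5824708 to 5845478, GRCm38).

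Genes of the basement membrane were lower at A18w. From a list of 22 basement membrane and elastic fibre genes, assembled after the values were seen, 21 were below 0, with a median of -0.41, and 10 were lower at an unadjusted p under 0.05. In 7 the stages did not overlap. Over all genes 5.48% were lower at that threshold, and in 3.18% the stages did not overlap downward. Because the members were picked with their values known, the list's counts and sum cannot be weighed against those shares. The list's summed level was 556 to 637 CPM at A6w and 433 to 495 CPM at A18w, with no overlap between stages. Its most abundant members, Sparc (-0.23 ± 0.18) and Agrn (-0.40 ± 0.13), each had overlapping stages. Without both A18w libraries numbered 1 the median was -0.34, with 17 of 22 below 0, and with the striatal level in the model it was -0.04.

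Nid1, the nidogen that ties laminin to type IV collagen, was at 12.2, 15.1, 11.8 and 14.6 CPM at A6w and at 5.28, 6.76, 5.21 and 6.71 CPM at A18w (-1.16 ± 0.15, edgeR adjusted p = 0.0845). Of the lower genes named by the smallest p it came after Gpr17, and it differed by -0.99 without both A18w libraries numbered 1. Eln, the core protein of elastic fibres, was at 12.6, 19.0, 9.06 and 8.39 CPM at A6w and at 3.26, 3.89, 4.78 and 4.93 CPM at A18w. Its log2 fold change of -1.49 ± 0.27 was made up of -2.15 in WT and -0.85 in Mcph1KO, which did not differ past the interaction test (edgeR adjusted p = 1).

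The chains of the main vascular type IV collagen, Col4a1 and Col4a2, were lower together. Col4a1 was at 50.8, 58.1, 40.6 and 42.1 CPM at A6w and at 18.5, 26.4, 31.4 and 32.8 CPM at A18w (-0.82 ± 0.19). For Col4a2 the log2 fold change was -0.76 ± 0.22, and both genes showed the larger step in WT, at -1.28 and -1.33 against -0.37 and -0.19 in Mcph1KO (interaction, edgeR adjusted p = 1 for each). The RefSeq start sites of the pair lie on opposite strands, 21 bases apart on chromosome 8 of GRCm38. Col4a1 starts at 11312826 on the minus strand and Col4a2 at 11312805 on the plus strand, so their first bases overlap. The laminin chains Lamc1, Lama4 and Lamc3 differed by -0.47 ± 0.11, -0.55 ± 0.13 and -0.69 ± 0.15.

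Other matrix and vessel genes were also lower with all 8 libraries. Col3a1, a fibrillar collagen of vessel walls and meninges, was at 3.42, 7.84, 7.72 and 7.14 CPM at A6w and at 0.558, 2.47, 1.79 and 2.69 CPM at A18w. It was lowest at each stage in WT 1, where the meningeal fibroblast markers also summed lowest. Of those 20 markers 17 were below 0 at A18w, with a median of -0.34, and their part in the matrix genes was not tested. Their median was 0.08, with 12 above 0, when both A18w libraries numbered 1 were left out. With the striatal level in the model it was 1.34, with 19 above 0. Fn1, fibronectin, was at 57.6 to 91.8 CPM at A6w and 31.2 to 48.4 CPM at A18w (-0.86 ± 0.20). Of 26 collagen genes 20 were below 0, with a median of -0.23. At an unadjusted p under 0.05, 8 were lower, against 5.48% of all genes. With the striatal level in the model Col3a1 differed by -0.04, Fn1 by -0.11 and the collagen median was 0.01. Of 28 endothelial genes 25 were below 0, with a median of -0.21, and 7 were lower, among them Mfsd2a, the lipid transporter of the blood-brain barrier, at -0.59 ± 0.12, and Vwf, von Willebrand factor, at -0.62 ± 0.19. The endothelial sum was 1370 to 1470 CPM at A6w and 1210 to 1430 CPM at A18w, so it overlapped between stages. The endothelial median was -0.27 when both A18w libraries numbered 1 were left out.

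Several interferon-induced genes were lower at A18w, whereas the MHC class I pathway genes H2-T23 and Tap2 were higher. Of 37 measured genes of the interferon and MHC class I list, 27 were below 0, with a median of -0.29. At an unadjusted p under 0.05, 11 were lower and 2 higher, against 5.48% and 5.58% of all genes. Summed, the list stood at 305 to 407 CPM at A6w and 329 to 381 CPM at A18w, so the stages overlapped. Its mean log2 CPM was 2.11 to 2.18 at A18w, 1.95 in A6w WT 1 and 2.45 to 2.75 in the other A6w libraries. Without both A18w libraries numbered 1 the median was -0.41, with 7 lower, and with the striatal level in the model it was -0.24, with 1 lower. Interferon-stimulated promoters commonly hold an interferon-stimulated response element. The sequences before the start of Isg15 and Ifit1 are shown because these 2 lower genes carry it; capitals mark GAAANNGAAA, read on both strands with overlaps allowed. Each ends just before the first annotated exon, and they span chr4:156200819-156200968 on the minus strand and chr19:34640744-34640870 on the plus strand of GRCm38, as RefSeq's promoter table gives them.
Isg15: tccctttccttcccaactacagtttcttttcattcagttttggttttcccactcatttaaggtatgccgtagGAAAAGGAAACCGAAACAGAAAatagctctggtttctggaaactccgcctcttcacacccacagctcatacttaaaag
Ifit1: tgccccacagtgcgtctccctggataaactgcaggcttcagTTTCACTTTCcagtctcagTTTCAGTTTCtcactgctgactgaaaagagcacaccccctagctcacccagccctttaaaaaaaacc

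Over windows of 250 bases before the RefSeq start, the motif was present in 13 of 30 list members with a window and in 936 of 27025 genes (3.46%). Among the members lower at an unadjusted p under 0.05 it was in 3 of 10. Isg15, with 3 overlapping matches, encodes a ubiquitin-like protein, and was at 1.69, 5.69, 2.21 and 1.91 CPM at A6w and at 1.37, 1.74, 0.875 and 0.787 CPM at A18w (-1.27 ± 0.36, edgeR adjusted p = 0.269). A6w WT 2 was far above the other libraries, and the stages overlapped. Ifit1, with 2 matches, encodes a sensor of foreign RNA caps and was at 2.72 to 5.59 CPM at A6w and 1.75 to 2.62 CPM at A18w (-0.84 ± 0.24).

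Oasl2, a relative of the RNA-sensing oligoadenylate synthetases, was at 2.93, 6.15, 3.52 and 4.45 CPM at A6w and at 1.54, 1.74, 2.03 and 2.61 CPM at A18w (-1.12 ± 0.28). Irf7, the transcription factor that amplifies interferon, was lower at -1.10 ± 0.38, with A6w values from 1.95 to 6.15 CPM. Its counts were 52 to 186 at A6w and 42 to 55 at A18w, so the stages overlapped. Lgals3bp, a secreted glycoprotein induced by interferon, was at 10.5, 16.3, 17.2 and 17.6 CPM at A6w and at 8.80 to 9.71 CPM at A18w (-0.70 ± 0.15). H2-T23, a nonclassical MHC class I gene with close relatives whose reads may be shared, went the other way at 11.3 to 14.5 CPM and 16.3 to 18.9 CPM (0.46 ± 0.12). Tap2, a subunit of the peptide transporter of antigen loading, differed by 0.54 ± 0.15, and B2m, the light chain of class I molecules, by -0.07 ± 0.11.

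Postsynaptic genes were lower by small amounts, while genes of the release machinery split. Of 38 postsynaptic density and glutamate receptor genes, 34 were below 0, with a median of -0.16. At an unadjusted p under 0.05, 9 were lower and 0 higher, against 5.48% and 5.58% of all genes. Nptxr, a receptor for the neuronal pentraxins that gather AMPA receptors, was at 1070, 1640, 1430 and 1360 CPM at A6w and at 718, 861, 1030 and 1080 CPM at A18w (-0.59 ± 0.15). Grin2b, an NMDA receptor subunit prominent in young neurons, was at 397 to 774 CPM at A6w and 342 to 556 CPM at A18w (-0.56 ± 0.22). The scaffold Shank2 differed by -0.59 ± 0.18. Without both A18w libraries numbered 1 the median was -0.12, with 27 of 38 below 0, and with the striatal level in the model it was -0.11, with 2 lower at an unadjusted p under 0.05. Of 26 synaptic vesicle and release genes 5 were higher and 6 lower at that threshold, with a median of -0.09.

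Slc17a7, the vesicular glutamate transporter of cortical pyramidal neurons, was at 1590, 1830, 1710 and 1640 CPM at A6w and at 1340, 1290, 1420 and 1360 CPM at A18w (-0.32 ± 0.09). The stages did not overlap, and the difference was -0.35 without both A18w libraries numbered 1 and -0.37 with the striatal level in the model. Of the 41 excitatory-list genes 6 were higher and 6 lower at an unadjusted p under 0.05, against 5.58% and 5.48% of all genes. The higher ones included Bcl11b (0.65 ± 0.21) and Pcp4 (0.94 ± 0.35), which deep cortical layers and the striatum both express. Pcp4 stood at 426 and 398 CPM in the A18w libraries numbered 1 and at 147 and 153 CPM in those numbered 2, within the A6w range of 131 to 157 CPM.

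Genes of immature neurons, 30 measured, were below 0 in 22 cases. At an unadjusted p under 0.05, 7 were lower and 1 higher, against 5.48% and 5.58% of all genes. The list's median was -0.13, and -0.17 with 26 below 0 when both A18w libraries numbered 1 were left out. Marcksl1, an actin-binding substrate of protein kinase C in growing neurites, was at 82.6, 127, 161 and 105 CPM at A6w and at 32.6, 63.2, 91.2 and 56.2 CPM at A18w (-0.99 ± 0.26). Dpysl3, a growth cone protein, was at 45.1 to 68.3 CPM and 29.8 to 42.7 CPM. Dcx, doublecortin, the microtubule protein of migrating neurons, differed by -0.36 ± 0.11. All 3 were far above these levels before birth, Dcx at a mean of 1710 CPM and Marcksl1 at 1360 CPM at E17.5.

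Among further lower genes picked by the smallest p, Cemip2, a cell-surface hyaluronidase, was at 15.8, 17.0, 16.1 and 18 CPM at A6w and at 8.37, 10.3, 9.43 and 10.4 CPM at A18w (-0.80 ± 0.11, edgeR adjusted p = 0.0916). Sidt1, a membrane protein related to nematode RNA channels, was at 62.4 to 68.5 CPM at A6w and 37.7 to 46.4 CPM at A18w (-0.63 ± 0.10). Erc1, a scaffold of the presynaptic active zone, was at 65.5 to 85.2 CPM and 41.3 to 51.1 CPM (-0.64 ± 0.11). Srr, serine racemase, which makes the NMDA receptor co-agonist D-serine, was at 75.8 to 81.8 CPM at A18w, under all 4 A6w libraries (-0.46 ± 0.08). Stages that do not overlap were a condition for naming these 4 genes.

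Rsc1a1 had 0 counts in the 4 A6w libraries and 73, 95, 63 and 24 counts in the A18w libraries, at least 80.2-fold higher after scaling to library size by the lower end of the exact counting interval; a floor of 3 counts over the A6w group gives 99.4-fold. It lies wholly within Ddi2 on the minus strand of chromosome 4 (141683851 to 141685599, GRCm38), so the split of reads between the pair is uncertain. Ddi2, a protease of the ubiquitin system, overlapped between the stages, at 56.0 to 77.6 CPM at A18w and no lower than 59.6 CPM at A6w (-0.27 ± 0.16). At the earlier stages Rsc1a1 had a mean of 0 CPM at E17.5 and 3.35 CPM at P4.

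Ribosomal and respiratory chain genes were higher by small amounts. Of 78 ribosomal protein genes 74 were above 0, with a median of 0.20. At an unadjusted p under 0.05, 11 were higher, against 5.58% of all genes. Of 95 nuclear genes of oxidative phosphorylation 93 were above 0, with a median of 0.17, and 10 were higher. Without both A18w libraries numbered 1 the medians were 0.03 and 0.05, with 45 of 80 and 59 of 95 genes above 0. Rps3a1, a small-subunit protein with processed copies that may share its reads, was at 149 to 220 CPM at A6w and 250 to 307 CPM at A18w (0.56 ± 0.13). Rps3a1 differed by 0.49 without both A18w libraries numbered 1.

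**Figure D3:**
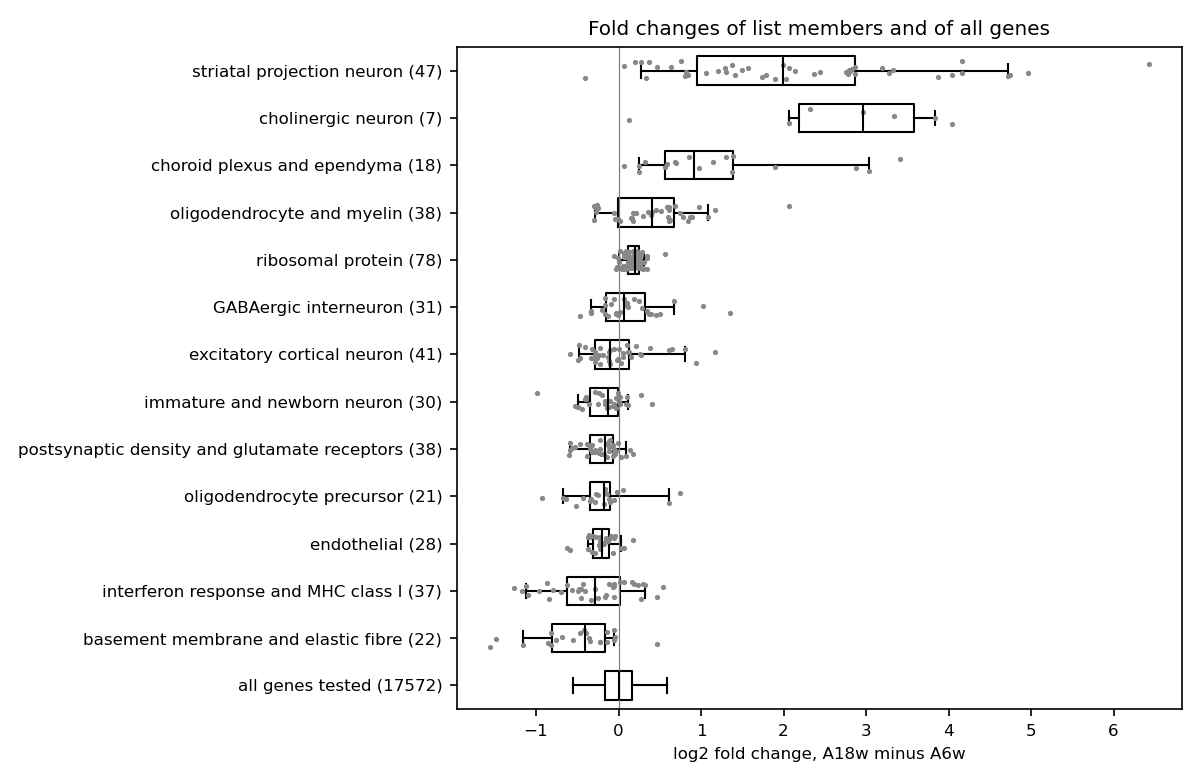
Log2 fold changes, A18w minus A6w, of the measured members of 13 lists and of all 17572 genes tested (horizontal axis). Boxes span the quartiles with the median as a line, whiskers the 5th to 95th percentile, points are single genes, and the number measured stands beside each name. The striatal list has a median of 1.99, the oligodendrocyte list 0.40 and the basement membrane list -0.41, against 0.01 for all genes.

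Of 24 measured glucocorticoid-responsive genes 15 were below 0, with a median of -0.17. At an unadjusted p under 0.05, 5 were lower and 1 higher, against 5.48% and 5.58% of all genes. Fkbp5, a chaperone partner of the glucocorticoid receptor, was at 33.0 to 64.7 CPM at A6w and 28.4 to 36.6 CPM at A18w (-0.56 ± 0.16). Zbtb16, a transcription factor induced by the receptor, differed by -0.85 ± 0.26. The kinase Sgk1 was at 49.7 and 53.3 CPM in A6w WT and at 240 and 174 CPM in A18w WT, whereas the Mcph1KO libraries were at 105 and 131 CPM and then 112 and 131 CPM. Its step was thus 2.0 in WT and 0.04 in Mcph1KO, and the difference between them did not pass the interaction test (edgeR adjusted p = 0.688).

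Microglial genes, 33 measured, had a median of -0.04 with 1 lower and 0 higher at an unadjusted p under 0.05. Immediate-early genes, 34 measured, had 0 in either direction. Of 35 astrocyte genes 4 were higher and 3 lower, against 5.58% and 5.48% of all genes. Serpina3n, an acute-phase protease inhibitor of reactive astrocytes, was at 68.3 and 72.2 CPM in the A18w libraries numbered 2, at 11.5 and 10.9 CPM in those numbered 1, and at 6.18 to 24.8 CPM at A6w.

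The same step was read separately in WT and in Mcph1KO, which share no library. Within WT 0 genes passed the adjusted test, with 1209 (6.88%) at an unadjusted p under 0.05, and within Mcph1KO 0 genes, with 876 (4.99%). The interaction called 0 genes, with 448 (2.55%) at that threshold, and DESeq2 called 104, 49 and 8 genes for these 3 tests. Of the 666 genes lower in WT at an unadjusted p under 0.05, 538 (80.8%) were also below 0 in Mcph1KO, and of the 595 higher, 477 (80.2%) were above 0. Over all 16412 genes compared, 62.9% had the same sign, and the rank correlation across genes was 0.31. Genes are not independent replicates, and in both genotypes the A18w library numbered 1 held more striatal RNA.

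**Figure D4:**
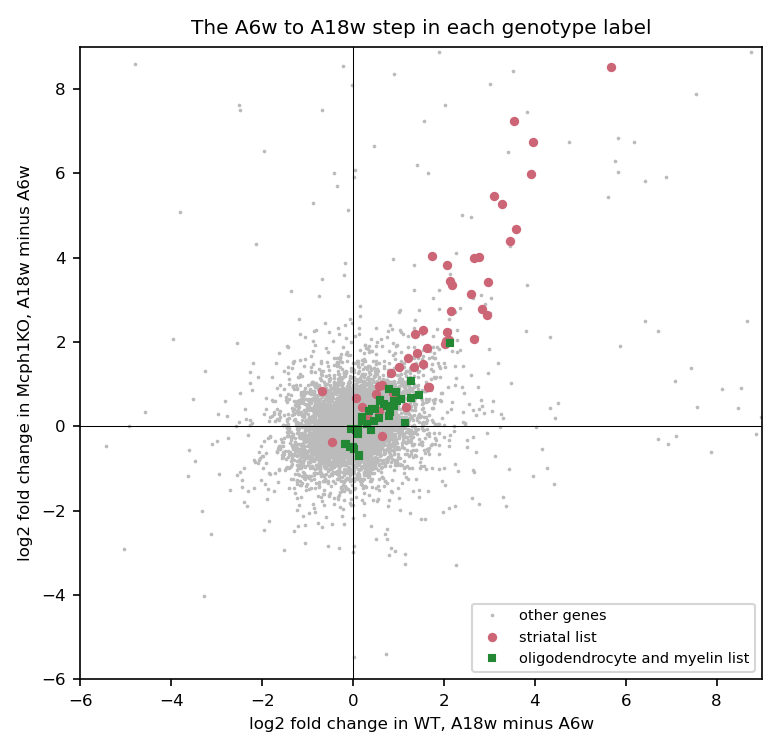
Log2 fold change of the A6w to A18w step in WT (horizontal) and in Mcph1KO (vertical), 1 point a gene. Striatal list genes (red) lie mostly at the upper right, with oligodendrocyte and myelin genes (green) nearer the origin; 40 genes outside the axes are not drawn.

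Outside the striatal list, the genes were also read in the earlier step, P4 against E17.5, which uses other libraries and in which 6553 genes (35.7%) were called. Of 944 genes lower at A18w at an unadjusted p under 0.05, 338 (35.8%) had been called higher and 124 (13.1%) lower at P4, against 18.7% and 18.6% of all 16773 genes compared. Genes higher at A18w showed 18.8% and 19.3%, near those shares. Thus Gpr17, Pdgfra (1.28 ± 0.23), Eln (0.96 ± 0.18) and Sidt1 (1.24 ± 0.39) were higher at P4 than at E17.5 and lower at A18w than at A6w. Cemip2 was lower at both steps (-1.18 ± 0.14 at the earlier one), as were Col4a1 (-0.54 ± 0.13) and Col3a1 (-0.90 ± 0.29).

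The libraries numbered 1 at A18w also shaped genes outside the striatal list. Among the 940 such genes higher at A18w at an unadjusted p under 0.05, both libraries numbered 1 lay above both numbered 2 in 39.9%, against 24.5% of all genes outside the list. Among the 963 lower genes both lay below in 37.4%, against 23.3%. Dach1, a transcription factor that striatal neurons share with cortical cells, was at 3.54 to 5.45 CPM at A6w and at 34.1, 9.92, 26.9 and 13.4 CPM at A18w. Mme, the protease neprilysin, was at 7.10 to 8.94 CPM and then 37.0, 14.4, 19.7 and 18.7 CPM, and Spock3, a matrix proteoglycan, at 68.0 to 86.2 CPM and then 171, 120, 163 and 125 CPM. With the striatal level in the model, Dach1 differed by 0.20, Mme by 0.46 and Spock3 by 0.35, and the lower genes Col3a1, Fn1, Dpysl3 and Grin2b by -0.04, -0.11, -0.04 and -0.14. Neat1, Eln and Slc17a7 differed by 1.23, -1.51 and -0.37 in that fit, in which none of the named genes passed the adjusted test.

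**Figure D5:**
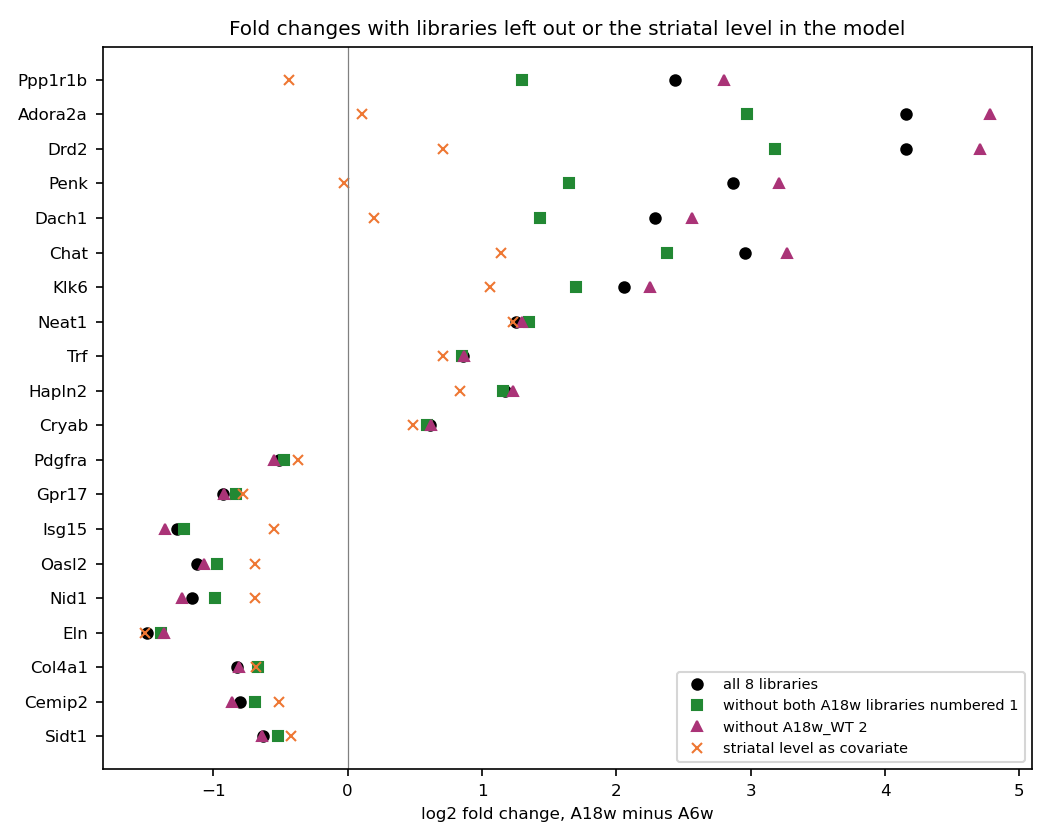
Log2 fold change, A18w minus A6w, of 20 genes with all 8 libraries (black circles), without both A18w libraries numbered 1 (green squares), without A18w WT 2 (purple triangles) and with the striatal level as a covariate (orange crosses). Ppp1r1b, Adora2a, Drd2 and Penk are part of the list that makes up the covariate, so their crosses are set by construction; Neat1 lies between 1.23 and 1.35 and Nid1 between -0.69 and -1.23.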

How the data were processed

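The authors deposited a table of expected counts per gene, with 54281 genes and 18 libraries; per the submitters' processing notes, the tools were FastQC, Trimmomatic 0.39 and Salmon 1.4.0 and the build GRCm38.p6 (mm10). How estimates were summed to genes, and whether strand was used, is not given in the sources used here. Gene symbols came from GENCODE vM21, which matched 54107 identifiers. Counts were rounded, genes with low counts were removed (edgeR's filterByExpr, minimum count 10 and total 15), and 17572 genes were fitted in edgeR 4.0.16 (R 4.3.3) with TMM factors, a genotype term and a stage term (5 residual degrees of freedom, quasi-likelihood F-test, Benjamini-Hochberg over all genes). Standard errors are the log2 fold change over the root of F. WT, Mcph1KO and interaction values came from 1 mean per group. The threshold was an adjusted p under 0.05. DESeq2 1.42.0, RLE factors, no filter, all 16 cortex libraries, a replicate block, the striatal level as covariate and leaving libraries out were the alternatives.

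Members and lists were chosen with earlier results of these data known. Genes were named as the 6 of smallest p in each direction (stages not overlapping, mean of at least 1 CPM, outside the striatal list), the most abundant members of lists, or after their values were seen. The last applies to most genes named with list results, and to the lists of cholinergic and basement membrane genes and the fits without both A18w libraries numbered 1. No library was a copy of another. The table's depth limits genes of few counts, and intervals on counts cover counting error only. Some genes are not reported here by name.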

Additional observations from a re-analysis of the deposited data

Results flagged for a closer look

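Of 210 groups of 4 libraries examined for 1 library far from the other 3, 9 were marked, where chance marks about 1 in 20. The gap to the nearest library as a share of the group's range was 0.877 for the hippocampal list mean (high in A6w WT 1), 0.939 for the GABAergic list mean (low in A18w WT 1) and 0.841 for the total count (high in A18w Mcph1KO 1). Among single genes it was 0.888 for Klk6 (high in A18w WT 1), 0.898 for Lamc1 (low in A18w Mcph1KO 1), 0.888 for Col3a1 (low in A6w WT 1), 0.859 for Lgals3bp (low in A6w WT 1), 0.904 for Zbtb16 (low in A18w Mcph1KO 1) and 0.929 for Cacna1b (high in A18w Mcph1KO 2).

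Ccn1, a secreted matrix protein, was at 2.71 and 3.44 CPM in A6w WT and 10.6 and 9.96 CPM in A18w WT, but at 15.5 and 14.1 CPM in A6w Mcph1KO and 12.2 and 10.1 CPM in A18w Mcph1KO. All WT libraries moved up and all Mcph1KO libraries down; the WT step exceeded the Mcph1KO step by 2.14 on the log2 scale, and edgeR's interaction test gave an adjusted p of 0.688.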

How the results depend on the processing

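The count of genes called for A18w against A6w was 0 in edgeR and stayed 0 with RLE factors or 1 mean per group. It was 314 with DESeq2, 905 with no filter on low counts, 26 with all 16 cortex libraries, 52 with the replicate block, 2 with the striatal covariate and 1 without both A18w libraries numbered 1; leaving out 1 library gave 0 to 52, the 52 without A18w WT 2. Outside the striatal list the counts were 282, 865, 15, 34, 2 and 1, and 0 to 28 with 1 library left out. Without the filter more genes were tested and edgeR's prior degrees of freedom became infinite (4.37 with it); which of these moved the count was not separated. Within WT, DESeq2 gave 104, no filter 580, all 16 libraries 5, and leaving out a library 0 to 2. Within Mcph1KO, DESeq2 gave 49, no filter 391, the replicate block 7, and leaving out a library 0 to 4. For the interaction DESeq2 gave 8, no filter 188, and leaving out a library 0 to 2. For P4 against E17.5 the 6553 calls became 4197 to 7025 with a library left out. Of the 52 genes called with the replicate block, 49 were among DESeq2's 314. Same-numbered libraries deviated together with correlations from 0.03 to 0.35 over the 6 pairs of groups, so the numbers were not taken to pair them. The cause of these moves was not tested.

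With the striatal covariate, by construction for the genes that make it up, the sign turned for Ppp1r1b (-0.44), Scn4b (-0.30), Adcy5 (-0.48), Pde1b (-0.40), Gng7 (-0.67), Penk (-0.03), Drd1 (-0.22), Dlx6 (-0.57), Bcl11b (-0.19), Pcp4 (-0.96) and Mbp (-0.61). Ttr turned to -0.65 without A18w WT 2, reached 5.25 with another single library left out, and was 5.79 without both A18w libraries numbered 1 and 11.4 with the striatal covariate. The other named genes kept their direction under the alternatives run.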
